A study of Drosophila melanogaster with 3 samples.

Results

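The regions described here are peaks of a chromatin immunoprecipitation experiment with sequencing (ChIP-seq) that lay at divergent promoters and carried no exact DNA replication-related element (DRE). A divergent promoter is a stretch from which one coding gene is transcribed to the left and another to the right. A peak was kept when its summit lay within 500 bp of a protein-coding transcription start site (TSS) on each strand and no copy of TATCGATA was centred within 250 bp of the summit. The rule used gene positions and sequence, and no measured value beyond membership of the authors' conservative list. It found 653 of 2793 peaks on chromosomes X, 2L, 2R, 3L, 3R and 4, or 23.4%.

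All 3 samples formed 1 group of whole Drosophila melanogaster embryos, aged 0 to 24 h, of strain Doc3-GFP. They carried a Doc3-eGFP fusion and were immunoprecipitated with an anti-GFP antibody, and each is a biological replicate. The tissues of the embryo were not separated, so a peak gives no cell type. The labels name a possible control experiment, which was not analysed here, so no value below is set against a mock or input sample.

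Doc3, or Dorsocross3, is a T-box transcription factor known for its roles in the amnioserosa and the embryonic heart. The palindromic DRE is bound by DREF, a factor known for the promoters of replication and other housekeeping genes. The boundary protein BEAF-32 binds clusters of CGATA, a sequence contained in the DRE, and is known for sitting between closely spaced divergent genes. Core promoters of fly housekeeping genes often carry Motif 1, Motif 6, Motif 7 or a DRE, each named here as in surveys of fly core promoters.

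The following 6 stretches come from the RefSeq genome sequence, release 6, which has the coordinates of dm6. Each lies within 50 bp of a summit and between the divergent TSSs, outside annotated exons, and all are written 5′ to 3′ on the plus strand. They were chosen after their values were seen, to show the elements described below.

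The stretch at RpL32/CG7943, chr3R:30046216-30046316, comes from the member of the second highest signal, and the capitals mark CGATA.
RpL32/CG7943: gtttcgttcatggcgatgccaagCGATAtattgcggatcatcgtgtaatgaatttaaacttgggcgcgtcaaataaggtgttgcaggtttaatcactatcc
The stretch at Slbp/Rpn2, chr3R:29153423-29153523, holds a pair of inverted DRE copies with 1 mismatch, in capitals. Slbp binds the stem-loop of histone mRNAs, and Rpn2 is a subunit of the proteasome's regulatory particle. The peak had a signal of 548, with 89.0, 225 and 213 in replicates 1, 2 and 3.
Slbp/Rpn2: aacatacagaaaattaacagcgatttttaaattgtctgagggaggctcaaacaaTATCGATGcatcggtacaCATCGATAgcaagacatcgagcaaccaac
At Ube3a/CG7600, chr3L:11210584-11210667, the capitals mark CGATA on either strand and, overlapping its first copy, a reversed GGTGTG, the core of the T-box site. Ube3a is a ubiquitin ligase.
Ube3a/CG7600: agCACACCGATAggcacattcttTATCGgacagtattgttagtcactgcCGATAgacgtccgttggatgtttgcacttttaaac
At CG15356/CG15362, chr2L:1980758-1980858, the capitals mark a DRE copy with 1 mismatch and then Motif 1.
CG15356/CG15362: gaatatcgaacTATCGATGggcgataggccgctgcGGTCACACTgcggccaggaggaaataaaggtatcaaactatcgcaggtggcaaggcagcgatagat
At CG3744/CG11089, chr3R:24876686-24876786, the capitals mark a reversed Motif 7 and then a reversed CGATA.
CG3744/CG11089: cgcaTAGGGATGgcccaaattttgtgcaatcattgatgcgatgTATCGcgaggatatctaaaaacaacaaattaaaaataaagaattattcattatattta
At CG1105/CG1965, chr3R:7067224-7067324, none of the 19 elements searched was found, although its peak had the 4th highest signal of the members. Its GC content was 19.8%.
CG1105/CG1965: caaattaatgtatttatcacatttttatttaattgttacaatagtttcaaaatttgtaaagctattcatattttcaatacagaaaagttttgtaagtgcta

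The strongest members lay between genes with basic cellular roles. The signal value is the peak strength given by the authors' caller, on a scale that the sources do not state, and serves here only to rank peaks within a list. The highest signal among the members, 1330, ranked 3 in the conservative list and belonged to the peak between Rpn6, a subunit of the proteasome's regulatory particle, and ave, a scaffold protein of Ras signalling (dm6 chr2R:14752157-14752608). The overlapping regions of replicates 1, 2 and 3 had signals of 265, 552 and 510. All 3 placed it at percentile 99.9 of the conservative peaks. RpL32, which is part of the ribosome's large subunit, and CG7943 shared a peak of 1181 at chr3R:30046055-30046475, with 210, 519 and 440 in replicates 1, 2 and 3. TAF1C-like/MESK2 followed at 1128, with replicate signals of 224, 474 and 402. CG1105/CG1965 had 1052, with replicate signals of 209, 436 and 380. Replicate 1 had the lowest value at each of these 4 peaks.

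Other members among the 15 of highest signal stood at Mic26-27/CG5916 (1040), where Mic26-27 is part of the complex that shapes mitochondrial cristae, and at Mppe/pds5 (1033), where pds5 regulates cohesin. Prosalpha7/CG1671, with a subunit of the proteasome core, had 862. CG12213/GC1, with a mitochondrial glutamate carrier, had 799 and held a DRE copy with 1 mismatch. CCT1/tHMG1, with a subunit of the chaperonin that folds actin and tubulin, had 692. Others among the 15 were Unc50/CG11755, Usp5/BtbVII, RabX1/mi, Ube3a/CG7600 and gb/CG5815. Each of the 15 overlapped a thresholded peak in all 3 replicates.

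**Figure D1:**
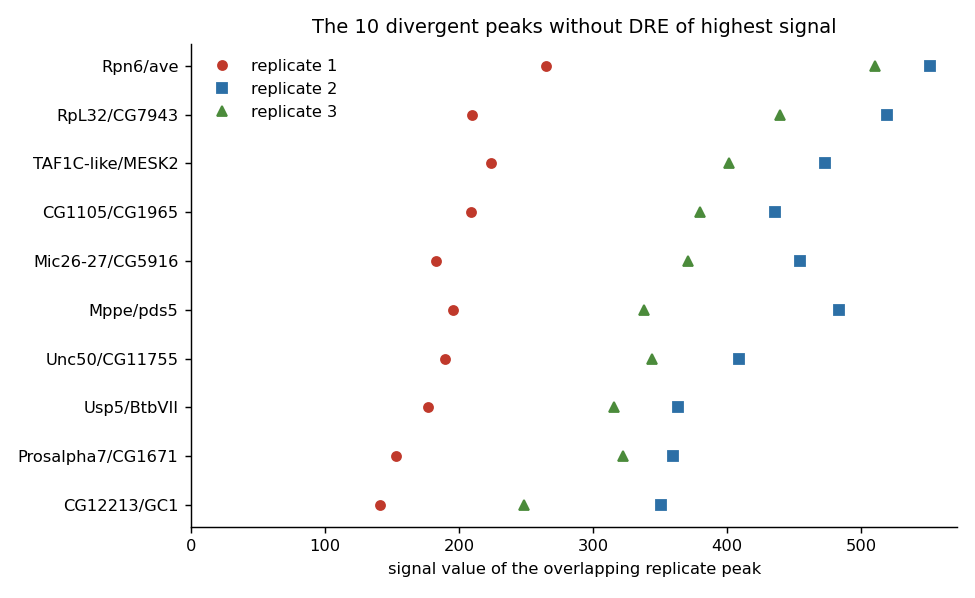
Signal value of the replicate region that overlaps each of the 10 members of highest conservative signal, named by the genes to the left and right. Each row has a point for replicates 1, 2 and 3. Replicate 1 had the lowest and replicate 2 the highest value in every row; scales differ between replicate lists.

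Over all 653 members the median signal was 172 (quartiles 96.9 and 299), and the values ran over a wide range, between 2.68 and 1330. The median was 229 for the 435 divergent peaks with a DRE and 147 for the 909 unidirectional peaks without one, which have a coding TSS on 1 strand within 500 bp. It was 170 for the whole list.

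Some of the weak members were shoulders of strong ones. Peaks of the list overlap, and the members fell into 543 merged regions, with 510 members being the strongest peak of theirs. The 143 that were not reached 38.8 in the median, and the 510 leading ones 214. In the whole list, the stronger of a pair of overlapping neighbours was the one at the lower coordinate in 493 of 523 pairs, with a median of 205 bp between the summits. The same held in 136 of 146 pairs whose weaker peak was a member. The pattern is one of genome coordinates, whatever the gene directions, and its cause was not tested. A shoulder also shares its replicate region with the stronger peak, so the values of the 510 leading members are given beside the main ones where they differ.

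In the replicates, 365 members (55.9%, 95% Wilson interval 52.1 to 59.7) overlapped a thresholded peak in all 3. The background over all conservative peaks was 53.6%, so the members stood close to the list as a whole. The conservative list derives from the same 3 samples, so the overlap is not independent evidence for a peak. Another 105 members were found in 2 replicates, 103 in 1 and 80 in none. Among the leading members, 283 of 510 (55.5%) were found in all 3. The lowest signals without a replicate peak were at Skp2/CG1103 (4.32), Adat1/CG16865 (6.05), CG3032/CG4593 (6.38) and Ost48/Dlip1 (8.63). None of these 4 summits lay between its TSSs.

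Members were found less often than divergent peaks with a DRE, in every replicate. The share with a thresholded peak was 69.7%, 79.02% and 66.9% of members in replicates 1, 2 and 3, against 76.8%, 88.5% and 78.4% of divergent peaks with a DRE. The mean difference was -9.35 ± 2.19 percentage points (SD, n = 3 replicates). All 3 replicates showed the direction, and the exact two-sided sign-flip permutation test gave p = 0.25, the smallest value that 3 replicates allow. Median percentiles of the replicate signal, taken among the conservative peaks of the same replicate, were 52.1, 50.02 and 49.98 for members and 62.5, 61.4 and 61.2 for divergent peaks with a DRE. That difference was -11.0 ± 0.515 percentile points (SD, n = 3; p = 0.25 by the same exact test).

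Against unidirectional peaks without a DRE, of which 60.0%, 74.3% and 56.9% were found, the members' shares were higher by 8.18 ± 2.96 points (SD, n = 3), in 3 of 3 replicates. The percentile difference was 7.65 ± 1.87 points, also in 3 of 3. Both exact sign-flip tests gave p = 0.25. The members thus stood between the other classes on both measures, without a test that could pass a threshold. Restricting all classes to list peaks at or above the median signal left differences of -0.0912 points from divergent peaks with a DRE and 0.886 points from unidirectional peaks in the share found. Replicates went both ways in each of these (exact sign-flip p = 1 and 0.5). Above the upper quartile of the list's signal, 97.0% of members and 98.0% of divergent peaks with a DRE were found in all 3 replicates. This top group held 25.1% of the members and 35.2% of the divergent peaks with a DRE, so the classes differ in how their signals are spread over the list.

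**Figure D2:**
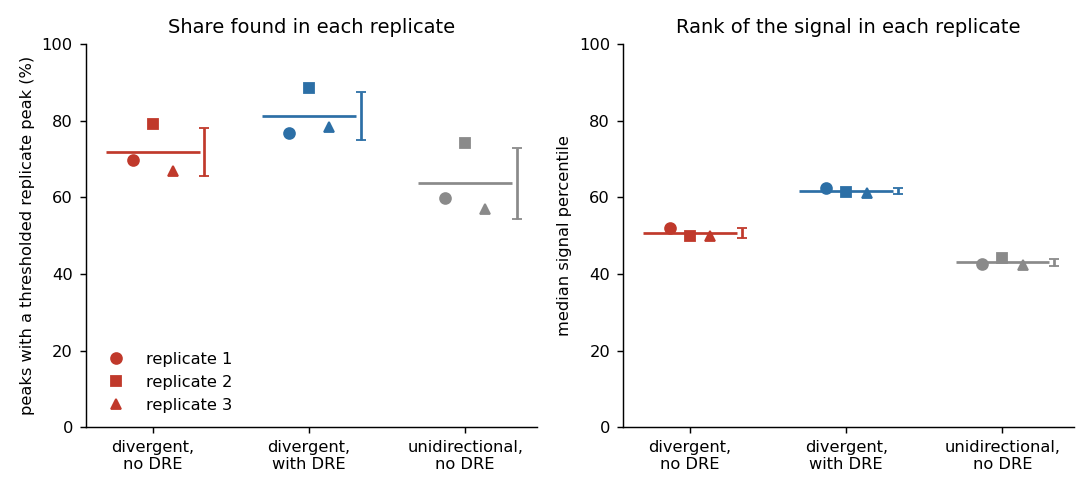
Left, share of each class with a thresholded peak in replicates 1, 2 and 3; right, median percentile of the replicate signal among conservative peaks. Points are replicates, lines are means and bars are SDs over 3 replicates; members average 71.9% and percentile 50.7, divergent peaks with a DRE 81.2% and 61.7, unidirectional peaks without a DRE 63.7% and 43.0.

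Over all gaps together, the summits sat in the space between the divergent genes more often than beyond it, but not at gaps up to 100 bp. In 639 members the left-going TSS lay to the left of the right-going one, with a gap of 2 to 826 bp (median 260, quartiles 133 and 359). In the other 14 the nearest TSSs were crossed, so that the transcripts overlap by 26 to 461 bp. Those 14 had a median signal of 97.8, and 6 were found in all 3 replicates. Of the 639, 447 summits (70.0%, 66.3 to 73.4) lay between the TSSs, at a median of 51.5 bp from the midpoint. For divergent peaks with a DRE it was 306 of 427 (71.7%), a difference of -1.71 points with a Newcombe interval of -7.18 to 3.91 that includes 0. The share was 78.4% of 500 leading members and 39.6% of 139 shoulders. It was 36.4% of 121 members with gaps up to 100 bp and 64.5% of 93 with gaps of 101 to 200 bp. With gaps above 500 bp all 47 summits lay between the TSSs, which the distance rule forces.

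The nearer TSS was a median of 74 bp from the summit and the farther one 215 bp. It was the left-going one for 300 members and the right-going one for 353. The narrowest gaps were 2 bp, at Zpr1/CG44532 (signal 139) and at CG11710/mal (126, with a shoulder of 10.7), where mal is needed for molybdenum cofactor enzymes. The widest were at CG17574/bic (826 bp, signal 103), TM9SF3/mthl2 (811 bp, 345) and CG32243/CG11357 (807 bp, 254). Of these, the CG17574/bic and TM9SF3/mthl2 peaks were not the strongest of their merged regions. Signal showed little relation to the gap. Median signals were 152, 158, 200, 186 and 172 for gaps up to 100, 200, 300, 500 and 1000 bp. Spearman's rho was 0.0445 across 639 regions that share 1 list.

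**Figure D3:**
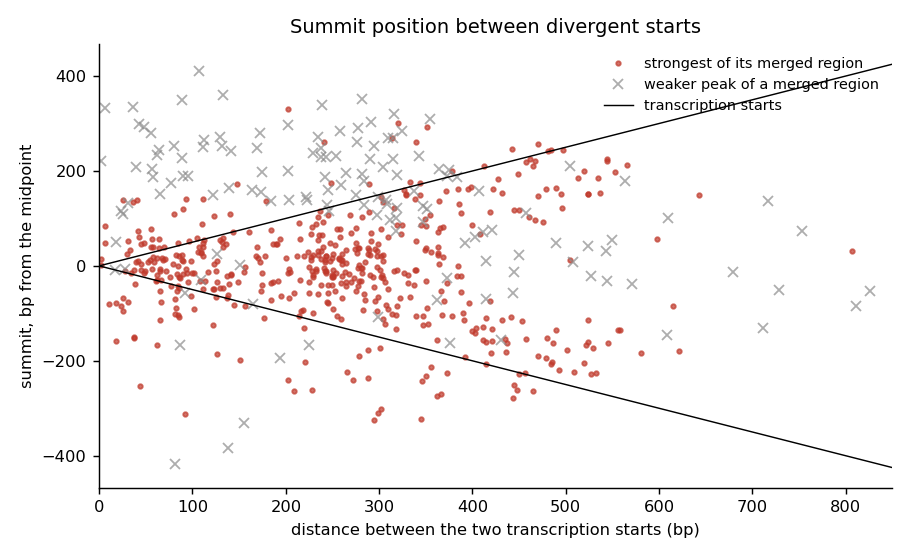
Position of 639 member summits relative to the midpoint between the TSSs (vertical axis, bp) against the distance between the TSSs (horizontal axis, bp). Black lines mark the TSSs, red points are the strongest peaks of merged regions and grey crosses their weaker neighbours; red points gather around the midpoint, and most grey crosses lie to the right of it in genome coordinates, which is up in the plot.

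A divergent promoter without a DRE usually carried no peak. Across the annotation, 2423 pairs of coding genes had divergent TSSs at most 1000 bp apart, counting each gene once. A conservative summit lay within 500 bp of both TSSs in 866 (35.7%). Of the 1952 pairs without a DRE within 250 bp of the midpoint, 504 carried one (25.8%, 23.9 to 27.8), against 362 of 471 with a DRE (76.9%, 72.8 to 80.4). The difference was -51.0 points (Newcombe interval -55.1 to -46.6, counting error only). It was present at every gap: 36.0% without a DRE and 85.3% with one up to 100 bp, 30.5% and 86.4% up to 200 bp, 32.99% and 82.6% up to 300 bp, and 29.9% and 82.1% up to 500 bp. Between 501 and 1000 bp it was 8.25% and 23.1%, where the distance rule itself leaves less room for a summit.

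**Figure D4:**
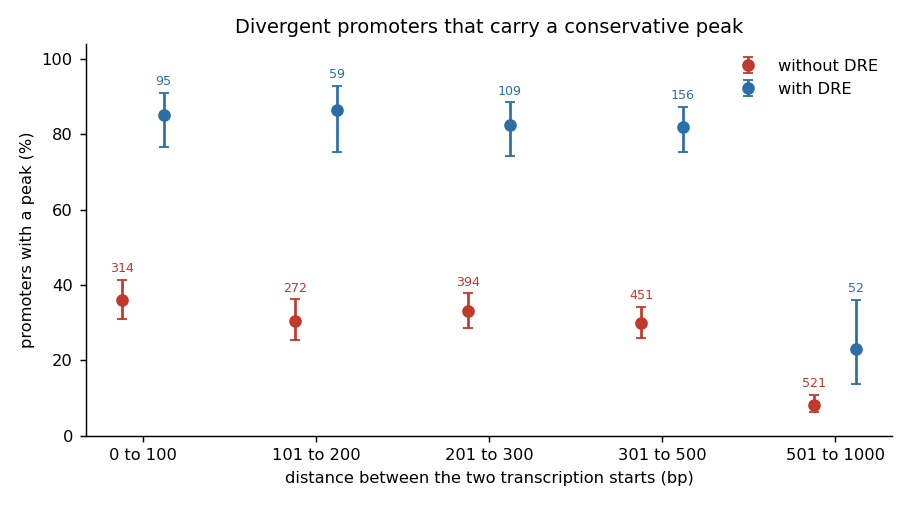
Share of divergent coding promoters with a conservative summit within 500 bp of both TSSs, by distance between the TSSs, for promoters without and with a DRE within 250 bp of the midpoint. Bars are 95% Wilson intervals and the numbers above them count promoters; the points without a DRE lie below those with one in all 5 bins.

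Although exact DREs were removed by the rule, sequences close to the DRE were the elements most raised at the summits. Within 50 bp of the summit, 166 members (25.4%, 22.2 to 28.9) held a copy with exactly 1 mismatch, against a mean of 2.53% in windows of 101 bp centred 500 bp to either side. The core ATCGAT was in 160 (24.5%, against 3.06%) and CGATA in 308 (47.2%, against 12.3%). All motifs were searched on both strands, and these 3 overlap each other. In windows of the same length centred 100 bp upstream of every coding gene's first TSS, n = 13945, the shares were 7.73% for 1 mismatch, 7.97% for ATCGAT and 20.4% for CGATA. Leading members alone held them at 30.2%, 28.6% and 53.3%. The elements were not particular to members among peaks: unidirectional peaks without a DRE held them at 30.4%, 29.7% and 50.7%. The members differed from these by -4.94 points (-9.37 to -0.414) for 1 mismatch, by -5.20 (-9.58 to -0.713) for ATCGAT and by -3.55 (-8.54 to 1.48) for CGATA. Divergent peaks with a DRE, where each exact copy also holds ATCGAT and CGATA, held a copy with 1 mismatch at 20.2%, ATCGAT at 46.7% and CGATA at 57.5%.

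The most frequent near copies were TATCGATT, at 65 members (9.95%, flanks 0.613%), and TATCGATG, at 55 (8.42%, flanks 0.383%). TTTCGATA followed at 21, and each keeps the CGA in the middle. A near copy lay whole within 250 bp of the summit in 409 members (62.6%), at a median of 61.5 bp. No share of flanks or other promoters was taken for this wider window, so its excess over background is not known. Among all possible sequences of 6 bases, counted with their reverse complements, TATCGA had the largest excess at summits over flanks, 30.2% against 3.52%. It also had the largest excess at divergent promoters with a peak over those without, 24.4% against 5.87%, all without a DRE. Sequences such as AAAAAT, second at summits (34.9% against 12.3% in flanks), stood at 36.7% of divergent promoters with a peak and 35.7% of those without.

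Divergent promoters that held these elements carried a peak more often than those that lacked them, a comparison that the rule did not fix. Of promoters without a DRE, 99 of 149 with ATCGAT within 50 bp of the midpoint carried a peak (66.4%, 58.5 to 73.5), against 405 of 1803 that lacked it (22.5%). With CGATA it was 197 of 412 (47.8%), against 307 of 1540 without it (19.9%). With a near copy of the DRE it was 113 of 214 (52.8%), against 391 of 1738 (22.5%). The differences were 44.0 points (35.8 to 51.3), 27.9 (22.7 to 33.1) and 30.3 (23.3 to 37.2). Among promoters with TSSs at most 500 bp apart they were 42.1, 29.2 and 33.6 points. The share for ATCGAT promoters, 66.4%, lay below the 76.9% of promoters with an exact DRE, but the intervals overlap (58.5 to 73.5 and 72.8 to 80.4). The windows also differ, as ATCGAT was sought within 50 bp of the midpoint and the exact DRE within 250 bp.

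Members holding CGATA had a higher median signal than those lacking it. The median conservative signal was 213 in the 308 holding it and 136 in the other 345. The share with a thresholded peak was 76.9%, 85.4% and 71.8% in replicates 1, 2 and 3 for those holding it, against 63.2%, 73.3% and 62.6%. The mean difference was 11.7 ± 2.33 points (SD, n = 3), in 3 of 3 replicates, with p = 0.25 by the exact sign-flip test. The median percentile was higher by 9.74 ± 3.27 points, also in 3 of 3 (p = 0.25 by the same exact test). CGATA was at 272 of 510 leading members (53.3%) and at 36 of 143 shoulders (25.2%). Among leading members alone, a split chosen after seeing the data, the median signal was 228 with CGATA and 199 without it. The share with a thresholded peak was then higher by 13.5 ± 3.93 points and the median percentile by 12.05 ± 4.12 points (SD, n = 3), each in 3 of 3 replicates (exact sign-flip p = 0.25). Among the 143 shoulders the 2 differences were 6.14 ± 7.46 and -0.454 ± 2.59 points, and replicates went both ways. For a near copy of the DRE, median signals were 229 with and 149 without it over all members, and 252 and 202 among leading ones. Of the 80 members found in no replicate, 8 (10%) held a near copy.

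With shoulders counted, nearly equal parts of the members did and did not hold such an element. CGATA alone was at 53.3% of the 510 leading members and at 25.2% of the 143 shoulders. The split below was not made for leading members alone. At least 1 of the near copy, ATCGAT and CGATA was within 50 bp of 325 summits (49.8%), with a median signal of 211. A further 45 had none of these but held Motif 1, 6 or 7 (median 157). The remaining 283 held none of the 6 (43.3%), with a median of 129, and 142 of them (50.2%, 44.4 to 56.0) were found in all 3 replicates. They include CG1105/CG1965, shown above, and Unc50/CG11755 (978) and RabX1/mi (747).

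Core promoter motifs were present at lower shares. Motif 7, CANCNCTA, was within 50 bp of 78 members (11.9%, flanks 3.14%, all coding promoters 3.97%). The strongest were CG3744/CG11089 (573) and rux/MCTS1 (514), where rux inhibits cyclin-dependent kinase. The rux/MCTS1 peak was found in 2 replicates, and no ranked region of replicate 3 overlapped it. Motif 1, GGTCACACT, was at 20 (3.06%, flanks 0.459%, all coding promoters 1.05%), led by CG15356/CG15362 (554) and Bin1/sra (475), where sra regulates calcineurin. Motif 6, GTATNTTT, was at 35 (5.36%, flanks 2.22%, all coding promoters 5.62%), led by CG9641/CG3165 (679). At the midpoints of divergent promoters without a DRE, Motif 7 gave 36.3% with a peak against 25.1% without the motif, a difference of 11.2 points (2.99 to 20.1). With TSSs at most 500 bp apart, that difference was 3.57 points (-5.24 to 13.3). For Motif 1 the difference over all these promoters was 9.27 points (-3.36 to 24.3), and 4.50 (-8.73 to 20.0) with TSSs at most 500 bp apart, and both intervals include 0.

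TATAAA was at 112 members (17.2%, flanks 5.97%), against 18.2% of all coding promoters and 23.8% of divergent promoters without a DRE or a peak. GAGAG, bound by GAGA factor, was at 41 (6.28%), against 13.3% of unidirectional peaks without a DRE, a difference of -7.03 points (-9.90 to -4.07). Divergent peaks with a DRE held it at 4.83%, a difference of 1.45 points (-1.48 to 4.14) that includes 0, and divergent promoters without a DRE or a peak at 8.84%. It was also in 12.2% of the members' flanks and 13.4% of all coding promoters. These sets were not matched for GC content, and its part in the differences was not tested. CAGCTG, an E-box, was at 37 (5.67%, flanks 6.74%, all coding promoters 5.02%). The initiator TCAGT was at 96 (14.7%, all coding promoters 16.4%) and GCCAT, bound by Pho, at 98 (15.01%, all coding promoters 15.4%).

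The T-box sequences GGTGTGA and GGTGTG were rare at these summits. Median GC content was 36.6% for members, 35.6% for divergent peaks with a DRE and 41.6% for unidirectional peaks without a DRE. The comparisons of elements between classes and with flanks were not matched for GC content. Its part in the differences below was not tested. GGTGTGA was within 50 bp of 2 members (0.306%, flanks 1.07%), against 17 of 909 unidirectional peaks without a DRE (1.87%) and 0.739% of all coding promoters. The difference from the unidirectional peaks was -1.56 points (-2.69 to -0.499). Divergent peaks with a DRE held it at 0.690%, and the difference of -0.383 points (-1.72 to 0.540) includes 0. The 2 members were SMSr/smid (signal 352, with 68.5, 146 and 127 in replicates 1, 2 and 3) and a shoulder of the CG12213/GC1 peak (152). The shorter GGTGTG was at 15 (2.30%, flanks 5.67%, all coding promoters 3.33%), led by Ube3a/CG7600 (723) and CG11779/nanos (552), where nanos encodes a repressor of translation. Of those 15, 4 were found in all 3 replicates (26.7%), against 361 of the 638 members that lacked GGTGTG (56.6%). The difference was -29.9 points (-46.1 to -4.34, counting error only). Of 22 divergent promoters without a DRE that held GGTGTGA at the midpoint, 2 carried a peak, against 502 of 1930 that lacked it, a difference of -16.9 points (-23.8 to 1.90). With TSSs at most 500 bp apart it was 2 of 19 against 459 of 1412, a difference of -22.0 points (-30.0 to -0.976).

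Other elements were at few members. The Zelda site CAGGTAG was at 5 (0.766%, all coding promoters 0.645%), which are CG12379/MagR, CG11586/VhaM9.7-a, tth/Tango2, CG6961/S6KL and CG6136/Ccm3. GCGCATGC, bound by ewg, was at 3 (0.459%, all coding promoters 0.387%), which are MTA1-like/Sec23 (498), Oda/SmD3 (418) and CG5757/CG5098 (139). The E2F site TTTCCCGC was at Rab27/mei-38 alone (signal 25.1; 0.538% of all coding promoters). CACGTG was at 6 (0.919%, all coding promoters 0.990%), and AGGNGGC, part of the CTCF site, at 18 (2.76%, all coding promoters 2.47%). The ETS site CCGGAAG was at 0 of 653, which allows a share of up to 0.585% by its Wilson interval, against 0.366% of all coding promoters.

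**Figure D5:**
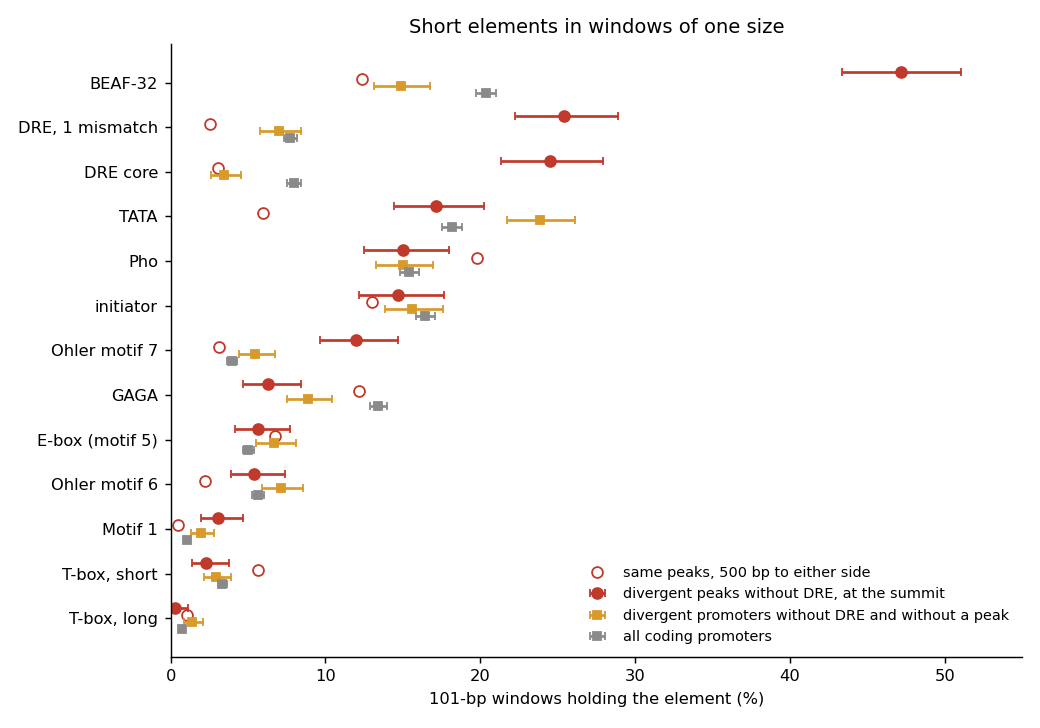
Share of 101-bp windows holding each element, for member summits (filled red), the members' windows 500 bp to either side (open red, mean of both sides), divergent promoters without a DRE or a peak (orange) and all coding promoters (grey). Bars are 95% Wilson intervals; BEAF-32 (47.2%), the DRE with 1 mismatch (25.4%), its core (24.5%) and Ohler motif 7 (11.9%) are the elements at members whose interval lies above the other 3 sets.

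Most lists of housekeeping genes had a higher share of their genes at members than coding genes as a whole, and several lay near the share of genes in divergent pairs. Lists of heart, T-box, receptor and cuticle genes held almost none, with few of their genes in such pairs. The intervals of the heart and T-box lists include the share of all coding genes. A coding TSS of 1114 of 13945 genes (7.99%) lay within 500 bp of a member summit, against which each list is read. Genes in divergent pairs without a DRE are the closer background, at 1007 of 3904 (25.8%). The lists are symbol patterns and hand-picked sets, and neighbours of 1 promoter each count where both are listed.

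Proteasome subunits were at members in 8 of 48 cases, and these were 8 of the 16 in divergent pairs without a DRE. They include Rpn6 (1330), Prosalpha7 (862), Rpn2 (548) and Rpn5 (250). Nucleoporins and importins counted 9 of 29, led by emb (470), the fly exportin for proteins, and Nup153 (397), although Kap3, a kinesin-associated protein, came in by its symbol. Splicing factors counted 12 of 39, among them Sf3b1 (613), Sf3a1 (490) and SmD3 (418). Replication and repair genes counted 11 of 48, with Mcm5 (579) of the replicative helicase and PolD2 (276) of DNA polymerase delta, although spn-F (266) is known for oogenesis. Cullin and anaphase-promoting complex genes counted 7 of 29. Within divergent pairs without a DRE the shares were 47.4% of 19 nucleoporins and importins, 44.0% of 25 splicing factors, 47.6% of 21 replication and repair genes and 54.5% of 11 cullin and anaphase-promoting complex genes. Of those 7, shtd (329), Cul5 (305), Cul1 (254) and Roc2 (62.6) fit the name, while Cdc37, Cdc45 and Cdc5 are a chaperone, a replication factor and a splicing factor.

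Mitochondrial ribosomal proteins counted 16 of 73, led by mRpL42 (452) and mRpS17 (391), and 14 of the 49 in divergent pairs without a DRE (28.6%), near that background. Respiratory chain and ATP synthase genes counted 12 of 84, with COX7B (570), ND-24 (441) and ATPsynF (372). General transcription factors and Mediator counted 12 of 65, with MED27 (578) and TfIIFalpha (467). Trafficking genes counted 17 of 100, with Sec61alpha (639) of the translocon, Rab39 (618) and Sec3 (570) of the exocyst. Aminoacyl-tRNA synthetases counted 5 of 33, which are GluProRS (474), GlnRS (452), MetRS (299), TyrRS (72.7) and AspRS (31.8). Cytosolic ribosomal proteins counted 10 of 86, and apart from RpL32 the strongest was RpS28a (498). Within divergent pairs without a DRE the share was 32.4% of 34 respiratory chain genes, 30.6% of 36 general transcription and Mediator genes and 16 of 40 trafficking genes. It was 27.8% of 18 synthetases and 25.7% of 35 cytosolic ribosomal proteins, near the background of 25.8%. Over all genes, the intervals of the synthetases (6.65 to 30.9%) and of the cytosolic ribosomal proteins (6.44 to 20.1%) include 7.99%.

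Translation factors counted 4 of 54 (7.41%), near the share of all genes: eIF2Balpha, eIF3b, eIF4H1 and eRF3. These were 4 of 18 in divergent pairs without a DRE (22.2%). Mitochondrial import counted 2 of 15 (3.74 to 37.9%), Tom7 (447) and Tim8 (207), of 4 genes in such pairs. Of the lists tied to the known roles of Doc3, heart and dorsal mesoderm regulators counted 0 of 34 (0 to 10.2%) and T-box genes 0 of 8 (0 to 32.4%). Amnioserosa and dorsal closure genes counted 2 of 32 (1.73 to 20.1%). These were bsk (73.0), the Jun kinase, and hep (56.4), the kinase that activates it. The intervals of all these Doc3-related lists include the 7.99% of all coding genes. Odorant, gustatory and related receptors counted 1 of 179, Ir31a, which shares its peak (379) with LSm-4, and cuticle proteins 0 of 122. Few genes of these lists lie in divergent pairs without a DRE: 2 heart genes, 0 T-box genes, 12 cuticle genes, 24 receptors (1 at a member, 4.17%) and 5 amnioserosa and dorsal closure genes (2 at members).

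The members were spread over the chromosomes. They made up 28.9% of the 637 conservative peaks on 3R (184) and 19.2% of the 548 on X (105), and between 22.5% and 23.2% on 2L, 2R and 3L. The share on 3R was 7.13 points above that of the other chromosomes together (Newcombe interval 3.30 to 11.1). As 3R was picked for its highest share, this interval does not show that it stands apart. The share of divergent promoters on each chromosome is not given here. On chromosome 4 there were 0 of 16.

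The rule has cut-offs in distance, and the peaks beside them were as follows. The members with the farther TSS just inside 500 bp were Not1/Nt5c (499 bp, signal 149), CG12608/Prp5 (498 bp, 145) and CG10584/Polr3E (497 bp, 92.1). Just outside lay Rrp4/ItgaPS5 (503 bp, 172), Septin5/nito (504 bp, 135) and zip/uzip (505 bp, 304). The members with the closest DRE were Rop/Ras64B (251.5 bp, 81.4), CG15443/Paris (253.5 bp, 22.1) and EMC1/Taf7 (255.5 bp, 96.0). A DRE excluded DnaJ-1/Usp47 (247.5 bp, 95.2), Hmt4-20/SkpA (243.5 bp, 109) and CG17597/ScpX (241.5 bp, 27.9). A DRE lay at most 500 bp from 44 members.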

How the data were processed

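Per the labels, chromatin of 3 biological replicates was sonicated to 200 to 800 bp and the data are on dm6. The authors deposited thresholded and ranked peak lists per replicate, and thresholded series-level lists. The deposited notes derive the series-level lists from the alignments of all 3 samples. The sources used here do not give the aligner, the peak caller or how each series-level list compares or pools the replicates. The deposited signal value of a peak has no stated scale and differs between lists, so it was used for ranks and descriptions within a list. The deposited score reached at least 830 in every thresholded list. Sequencing depth is unknown, and intervals cover counting error only.

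The summit was the start plus the deposited offset. TSSs came from 30748 coding transcripts of Ensembl release 115 (FlyBase annotation 6.54), and sequence from the RefSeq genome release 6. The thresholded lists held 1774, 2486 and 1812 peaks in replicates 1, 2 and 3, and the ranked lists 30159, 59389 and 141211. Peaks overlapped at 1 bp or more. A member's replicate signal was the highest in the ranked list among overlapping regions, and a percentile is its rank among all conservative peaks. Peaks are not replicates, so shares have 95% Wilson intervals, differences have Newcombe intervals, and tests were exact sign-flip permutations over 3 replicates. The motif scan was tested on simulated data.

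Named genes are those of the 15 members of highest signal, up to 4 of highest signal per motif or list, the widest and narrowest gaps, the members beside each threshold, the 5 weakest found in no replicate, and counts of 5 or fewer, of which 2 members are not reported here. The members and lists were chosen with earlier results of these data known. The labels call the replicates biological but do not describe the embryo collections, so the spread between replicates may be partly technical. Python 3.11.15, numpy 2.4.6, pandas 2.3.3, scipy 1.17.1 and matplotlib 3.10.9 were used. Alternatives were 1 peak per merged region, other TSS and DRE distances, a mismatched DRE, peaks at or above the median signal, the other series-level lists, each replicate left out, stricter overlap, peak midpoints, other motif windows and a shorter pair distance.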

Additional observations from a re-analysis of the deposited data

Results flagged for a closer look

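The other thresholded series-level lists, which the comparisons above do not use, held further summits that met the same rule and overlapped no conservative peak. There were 21 in the list of 2301 peaks, 43 in that of 2456 and 126 in that of 3513. The largest signals among them were 207, 197 and 207. They include Pgi/lin (207), at a glycolytic enzyme, with a thresholded peak in all 3 replicates. In each list, few of the other summits had a thresholded peak in all 3 replicates, and some had one in none. No control sample was analysed here. The lists derive from all 3 samples, but how each compares or pools the replicates is not given in the sources used here. Of the 653 members, 525 (80.4%) overlapped a peak of the list of 2301, 545 (83.5%) one of the list of 2456 and 625 (95.7%) one of the list of 3513.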

How the results depend on the processing

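The mean differences over replicates from divergent peaks with a DRE and from unidirectional peaks kept their sign under every alternative run. Their p values cannot pass a threshold. With a replicate left out, these differences were means over the remaining replicates for the unchanged classes of the main setting. Each replicate already had that sign there, so those runs could not reverse. The share found ranged between -16.1 and -0.0912 points against the first and between 0.886 and 12.9 against the second; the smallest sizes came from list peaks at or above the median signal. There the replicates went both ways for both shares (exact sign-flip p = 1 and 0.5) and for the percentile difference from unidirectional peaks (1.07 points, p = 0.5). They also did so for the share against unidirectional peaks when 50% of both peaks had to overlap (2.72 points, exact p = 0.5). No paired analysis was possible because the samples form 1 group, apart from the differences between classes, which were taken within each replicate.

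The rule gave 378 members with TSSs within 250 bp, 242 without near copies of the DRE centred within 250 bp (2 of those removed had a copy that reaches past that distance), 329 in list peaks at or above the median signal and 378 to 416 with a replicate left out, where only peaks found in both others were kept. The share found in all 3 replicates was 47.1% without near copies, 83.6% at or above the median signal, 67.6%, 62.5% and 48.9% in the lists of 2301, 2456 and 3513 peaks, and 30.5% when 50% or more of both peaks had to overlap; it has no value with a replicate left out. The share of summits between the TSSs, 68.5% of all 653, was 76.9% with 1 peak per merged region, 75.1% and 64.5% with TSSs within 250 and 1000 bp, 61.2% with only the first TSS of each gene, 62.4% without near copies, 85.1% at or above the median signal and 73.1% to 75.1% with a replicate left out.

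The share of divergent promoters without a DRE that carried a peak was 17.7% and 33.6% with TSSs within 250 and 1000 bp, 31.1% with the DRE judged within 100 bp, 14.1% without near copies, 15.8% at or above the median signal, 21.6%, 23.4% and 30.1% in the lists of 2301, 2456 and 3513 peaks, 32.2% for TSSs at most 500 bp apart and 15.4% to 16.6% with a replicate left out. With a DRE it was 54.6% and 82.2% with TSSs within 250 and 1000 bp, 83.3% and 67.4% with the DRE judged within 100 and 500 bp, 58.6% counting near copies as DREs, 58.4% at or above the median signal, 71.3% and 71.5% in the lists of 2301 and 2456 peaks, 83.5% for TSSs at most 500 bp apart and 52.7% to 56.1% with a replicate left out. It stayed above the share without a DRE in each of these.

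Motif 1 at summits minus flanks, 2.60 points, was 1.53 and 4.82 within 25 and 100 bp. The near copy of the DRE, 22.9 points, was 27.2 with 1 peak per merged region, 32.7 at or above the median signal, 12.2 and 37.4 within 25 and 100 bp, and 26.1 to 27.4 with a replicate left out. It reversed to -2.48 points when peaks with near copies were removed, by construction.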
